A study of Arabidopsis thaliana with 13 samples.

Results

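Cytochrome P450 genes were followed here in Arabidopsis root tips, through the array probe sets that were assigned to exactly 1 gene whose symbol had the CYP form with a family number, a subfamily letter and a gene number. The rule found 22 probe sets for 22 genes among 13513 probe sets with 1 gene, and 22746 probe sets were tested in all. Of the 22 genes, 18 belonged to the CYP71B subfamily and the other 4 were CYP51G2, CYP78A9, CYP79A2 and CYP84A4. The current annotation lists 225 genes with such a symbol, so most of the superfamily was not analysed here. Of the 22 genes, 20 were listed as protein-coding and 2, CYP51G2 and CYP71B27, as transcribed pseudogenes.

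The tested line was rRBr, in which an RNA interference construct against RETINOBLASTOMA-RELATED (RBR), a regulator of cell division and stem cell fate, was driven in the root meristem by the RCH1 promoter in the Col-0 background. It was set against the Col-0 wild type, which carried no construct. Dissected root tips of both lines were collected 4, 6 and 10 days after sowing (das) from seedlings grown on agar under long days, and their RNA was hybridised to ATH1 arrays. There were 7 rRBr arrays (2 at 4 das, 2 at 6 das, 3 at 10 das) and 6 Col-0 arrays (2 at 4 das, 1 at 6 das, 3 at 10 das). The comparisons ask whether the lines differed, and whether this changed with the age of the root.

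Cytochrome P450s are haem-containing monooxygenases that receive electrons from a reductase and insert an oxygen atom into a small molecule. In plants they form one of the largest enzyme families, with members in the synthesis and breakdown of hormones, sterols, lignin precursors and defence compounds. The CYP71B subfamily is large in Arabidopsis and includes PAD3, which makes the antimicrobial compound camalexin, whereas most CYP71B enzymes have no substrate that can be stated with certainty.

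Each array is given as log2 RMA values, in which 1 unit is a 2-fold step. A value depends on how well the probes of that probe set bind, so values are compared between arrays and not between genes, and the position of a probe set was read only against the other probe sets of the same array. The array medians lay between 5.96 and 6.06 and the lower quartiles between 4.15 and 4.24. The root meristem markers BBM and CR4 (ACR4) had means of 6.00 and 5.08, and the photosynthesis genes RCA and SBPASE had means of 4.92 and 4.15. Lists for columella, non-hair epidermis, endodermis, xylem and phloem had no probe set of 1 gene, so these tissues could not be checked. In whole root tips, fewer cells of a type and less RNA per cell cannot be told apart.

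The arrays that stood apart were marked by their root hair transcripts: rRBr 6 das replicate 1, rRBr 10 das replicate 1 and Col-0 10 das replicate 1. The mean of EXPA7 and EXPA18, which encode expansins of growing root hairs, was 8.80 to 8.89 for these 3 and between 4.69 and 7.41 for the remaining 10. The summed level of the root hair list, of which 2 of 18 genes had a probe set of their own, ran from 6.38 to 9.90 over rRBr arrays and from 5.72 to 9.86 over Col-0 arrays (log2 scale). The summed level of the root meristem list (BBM and CR4, 2 of 14 genes) was 6.07 to 6.44 on the 3 arrays and 6.58 to 6.90 on the remaining 10, without overlap. BBM alone ranged from 5.34 to 5.76 on the 3 arrays, with 5.92 to 6.37 elsewhere, and CR4 from 4.74 to 5.02, with 5.03 to 5.38 elsewhere. Fitted differences are followed by their values without these arrays.

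Most of the P450 probe sets had low signal in root tips. Only CYP71B6 was above the array median on all 13 arrays, which is 4.55% of the 22 probe sets, against 44.4% of all probe sets. CYP71B26, CYP51G2 and CYP84A4 were above the median on 12, 8 and 3 arrays, and the remaining 18 were not above it on any array. At the other end, 13 of the 22 (59.1%) were below the lower quartile on every array, against 18.6% of all probe sets. These 13 were CYP71B5, CYP71B16, CYP71B21, CYP71B23, CYP71B24, CYP71B25, CYP71B27, CYP71B28, CYP71B31, CYP71B35, CYP71B36, CYP71B37 and CYP79A2. Their values on single arrays ran from 3.23 to 4.08, and their SDs over the 13 arrays from 0.056 to 0.138, with a median of 0.097 beside 0.085 for all probe sets with such low signal. A low value is not a proof that a gene is silent, since no detection calls were used and a weakly binding probe set gives the same reading.

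**Figure D1:**
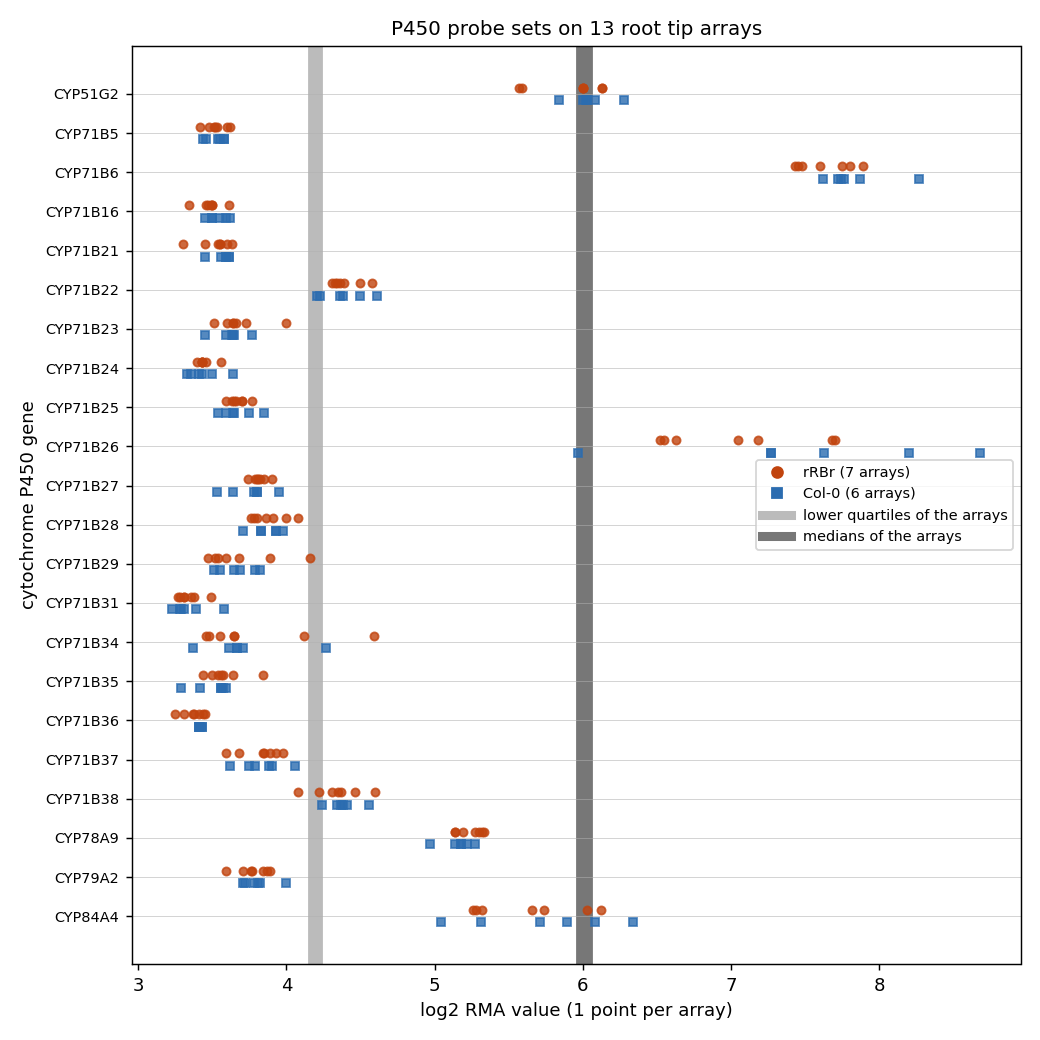
log2 RMA values of the 22 P450 probe sets on 13 arrays, 1 point per array, with rRBr (circles) above Col-0 (squares) in each row. The light and dark bands span the lower quartiles (4.15 to 4.24) and the medians (5.96 to 6.06) of the arrays; 13 genes lie left of the light band on every array and CYP71B6 lies right of the dark band on every array.

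CYP71B6 and CYP79A2 were the members of the list for indole, camalexin and glucosinolate metabolism, of which 2 of 19 genes had a probe set assigned to them alone here. CYP71B6 converts indole-3-acetonitrile to indole-3-carbaldehyde and indole-3-carboxylic acid, compounds that accumulate during defence. In rRBr it read 7.60 and 7.43 (4 das), 7.45 and 7.48 (6 das) and 7.75, 7.89 and 7.80 (10 das). In Col-0 it read 7.72 and 7.76 (4 das), 7.74 (6 das) and 7.62, 8.27 and 7.87 (10 das). At 4 das both rRBr arrays lay below both Col-0 arrays, with a fitted difference of -0.225 ± 0.173 (SE, limma unadjusted p = 0.226). At 6 das both lay below the single Col-0 array, with a fitted difference of -0.275 (-0.26 without the 3 arrays with high root hair transcripts). How many of all probe sets separate this way with so few arrays was not counted. At 10 das all 3 rRBr arrays lay between the lowest and the highest Col-0 array. The difference over all days was -0.20 ± 0.109 on the log2 scale (SE, 95% interval -0.44 to 0.03, limma adjusted p = 0.595), which had the lowest adjusted p of the 22 and did not pass the test. It was -0.23 without the 3 arrays with high root hair transcripts (limma adjusted p = 0.534). CYP79A2 makes phenylacetaldoxime from phenylalanine, the first step of benzyl glucosinolate synthesis. Its 13 values, from 3.59 to 4.00, were each below the lower quartile.

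CYP84A4 was the only 1 of 7 genes of the phenylpropanoid, lignin and flavonoid list with a probe set of its own here. It is a relative of the lignin enzyme ferulate 5-hydroxylase and acts in the synthesis of arabidopyrones. Its values in rRBr were 5.66 and 5.26 (4 das), 6.03 and 5.74 (6 das) and 6.12, 5.28 and 5.32 (10 das). Those in Col-0 were 5.89 and 6.08 (4 das), 5.71 (6 das) and 6.34, 5.04 and 5.31 (10 das). The spread of the rRBr arrays at 10 das (SD 0.474, n = 3) was wider than that of all 7 rRBr arrays (SD 0.358), and the ranges of the lines overlapped. On both lines the highest array at 10 das was replicate 1, the array with high root hair transcripts. The difference between lines over all days was -0.10 ± 0.215 (SE, 95% interval -0.56 to 0.36, limma adjusted p = 0.926). Without the 3 arrays with high root hair transcripts it was -0.15, and without Col-0 10 das replicate 1 alone it was 0.02.

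CYP51G2 stood for the sterol list, in which 1 of 8 genes had a probe set of its own. The CYP51 family holds the sterol 14-demethylases, but CYP51G2 itself is listed as a transcribed pseudogene. It read 6.13 and 6.13 (4 das), 5.57 and 6.00 (6 das) and 5.59, 6.00 and 6.00 (10 das) in rRBr. In Col-0 the values were 6.03 and 6.28 (4 das), 5.84 (6 das) and 6.00, 6.08 and 6.02 (10 das). The 2 lowest rRBr values, 5.57 and 5.59, were both on arrays with high root hair transcripts, whereas the Col-0 array of that kind read 6.00. The difference over all days was -0.12 ± 0.105 (SE, 95% interval -0.35 to 0.10, limma adjusted p = 0.776), and it was 0.002 without the 3 arrays.

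CYP78A9 belongs to the CYP78A group, whose members promote organ growth, and overexpression of this gene enlarges fruits. It was the only 1 of 6 genes of that list with a probe set of its own. In rRBr it read 5.30 and 5.33 (4 das), 5.14 and 5.19 (6 das) and 5.32, 5.27 and 5.14 (10 das). In Col-0 it read 5.18 and 5.27 (4 das), 4.97 (6 das) and 5.18, 5.22 and 5.14 (10 das). All 13 values fell between the lower quartile and the median of their arrays, and the SD of 0.098 was below the median SD of all probe sets, 0.149. The lines differed by 0.08 ± 0.055 over all days (SE, 95% interval -0.04 to 0.20, limma adjusted p = 0.702), and by 0.09 without the 3 arrays. The other 11 of the 15 P450 role lists had no gene among the 22, including those for brassinosteroids, gibberellins, abscisic acid, cytokinins, strigolactones and jasmonates.

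Among the CYP71B genes, CYP71B26 varied most between arrays. Its SD over the 13 arrays was 0.740, at percentile 97.9 of all probe sets, and it stayed at 0.552 after the means of line and day were removed, at percentile 96.0. In rRBr it read 6.55 and 6.52 (4 das), 7.05 and 6.63 (6 das) and 7.70, 7.18 and 7.68 (10 das). In Col-0 it read 7.27 and 5.97 (4 das), 7.63 (6 das) and 8.20, 8.68 and 7.27 (10 das). In rRBr every array at 10 das lay above every array at 4 and 6 das, with 7.18 the lowest at 10 das and 7.05 the highest before. The share of all probe sets with such a separation was not counted. In Col-0 the lowest array at 10 das equalled the higher array at 4 das.

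CYP71B26 at 10 das averaged 7.52 ± 0.295 in rRBr and 8.05 ± 0.717 in Col-0 (SD, n = 3 each). At 4 das it averaged 6.54 ± 0.021 in rRBr and 6.62 ± 0.919 in Col-0 (SD, n = 2 each). Averaged over both lines, the difference of 10 das against 4 das was 1.21 ± 0.313 on the log2 scale, a 2.31-fold higher level at 10 das (SE, 95% interval 0.50 to 1.91). The limma p was 0.00367, the lowest of the 22, but after adjustment over all probe sets it was 0.229 and the gene was not called. Within rRBr the difference was 0.98 ± 0.443 (SE, limma adjusted p = 0.949), and within Col-0 it was 1.43 ± 0.443 (SE, limma adjusted p = 0.632). The Col-0 value moved with single arrays at 4 das: it was 0.78 without Col-0 4 das replicate 2 (limma unadjusted p = 0.132) and 2.08 without Col-0 4 das replicate 1. Without the 3 arrays with high root hair transcripts the averaged difference was 1.12 (limma adjusted p = 0.205), that within rRBr 0.90 and that within Col-0 1.35. Over all alternatives the averaged difference ran from 0.88 to 1.53 with adjusted p between 0.114 and 0.755. Between the lines, CYP71B26 differed by -0.46 ± 0.371 over all days (SE, 95% interval -1.26 to 0.34, limma adjusted p = 0.762), the widest interval of the 22, which covers a change of more than 2-fold. This difference was -0.45 without the 3 arrays. The photosynthesis marker RCA was also higher at 10 das without overlap, at 5.06 to 5.18 in rRBr and 4.96 to 5.53 in Col-0, against 4.47 to 4.80 in rRBr and 4.39 to 4.41 in Col-0 at 4 das. The summed level of the shoot list (RCA and SBPASE, 2 of 20 genes) was 5.66 to 5.77 in rRBr and 5.61 to 6.03 in Col-0 at 10 das, against 5.30 to 5.53 in rRBr and 5.25 to 5.33 in Col-0 at 4 das. SBPASE ranged from 4.01 to 4.24 in rRBr and 4.14 to 4.24 in Col-0 at 10 das, which overlapped its values at 4 das. Whether shoot or plastid transcripts play a part in the age difference was not tested.

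**Figure D2:**
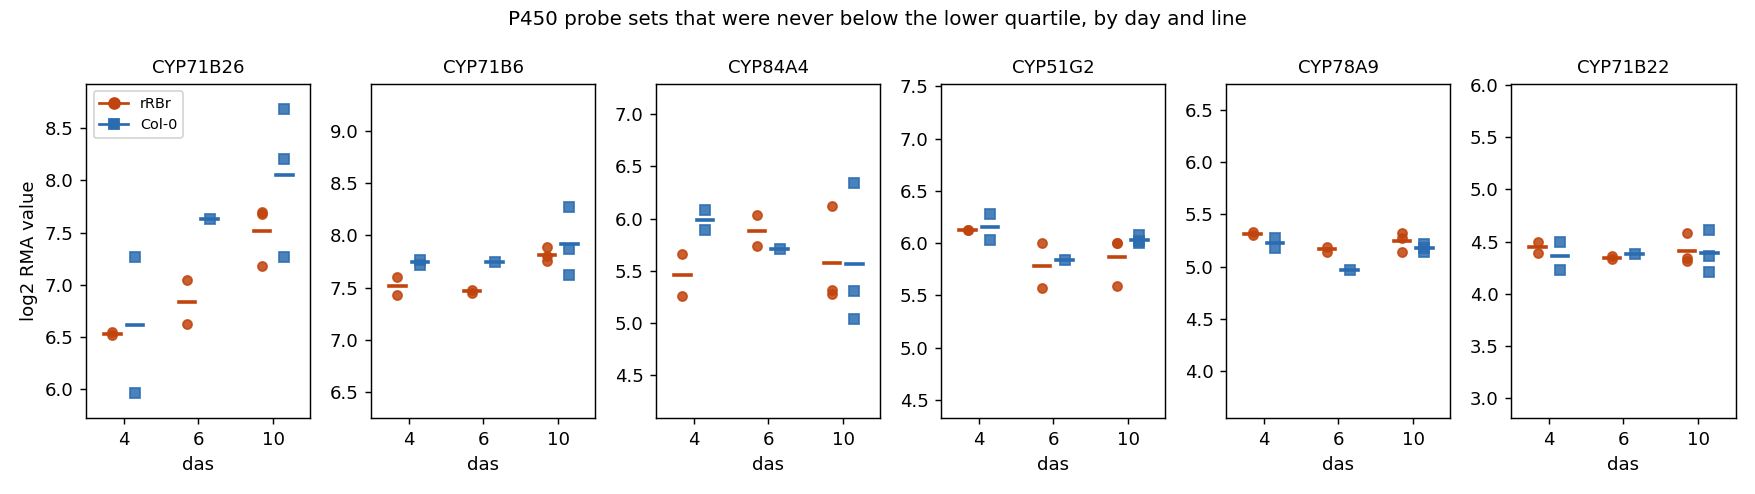
log2 RMA values of the 6 P450 probe sets that were never below the lower quartile of an array, by day (das), with rRBr (circles) left of Col-0 (squares); short lines are group means and every panel spans the same number of log2 units. CYP71B26 reads higher at 10 das (7.52 in rRBr and 8.05 in Col-0) than at 4 das (6.54 in rRBr and 6.62 in Col-0), while CYP78A9 and CYP71B22 stay within 0.40 log2 units.

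CYP71B26 lies in a run of CYP71B genes. In the TAIR10.1 gene order, 11 of the 22 genes follow each other with at most 6 genes between neighbours: CYP71B16, CYP71B21, CYP71B22, CYP71B23, CYP71B24, CYP71B25, CYP71B26, CYP71B34, CYP71B35, CYP71B36 and CYP71B37. Of these 11, CYP71B26 was above the array median on some arrays and the other 10 on none, and 8 were below the lower quartile on every array. The 10 others read between 3.25 and 4.61. CYP71B22 read 4.31 to 4.58 in rRBr and 4.21 to 4.61 in Col-0, never below the lower quartile of its array, and CYP71B34 was below it on 11 arrays. How far the probes of one CYP71B gene also bind transcripts of its close copies was not measured.

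CYP71B34 and CYP71B29 were higher on each of the 3 arrays with high root hair transcripts than on any of the other 10. CYP71B34 read 4.59 on rRBr 6 das replicate 1, 4.12 on rRBr 10 das replicate 1 and 4.27 on Col-0 10 das replicate 1, against 3.37 to 3.71 on the other arrays. CYP71B29 read 4.16, 3.89 and 3.82 on the same arrays, against 3.47 to 3.79 on the others. These 2 make up 9.09% of the 22, beside 7.74% of all probe sets that were higher on these arrays without overlap, and the shares were near each other. None of the 22 was lower on all 3 arrays without overlap, beside 10.3% of all probe sets. CYP84A4 read 6.03 to 6.34 on the 3 arrays and 5.04 to 6.08 on the others, which overlapped by a narrow margin. All 3 arrays are replicate 1 of their group and had the lowest summed root meristem markers. The replicate 1 arrays of Col-0 at 6 das and of both lines at 4 das were not among them. Whether root hair or meristem content, the growth round or the array plays a part in these values was not tested.

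**Figure D3:**
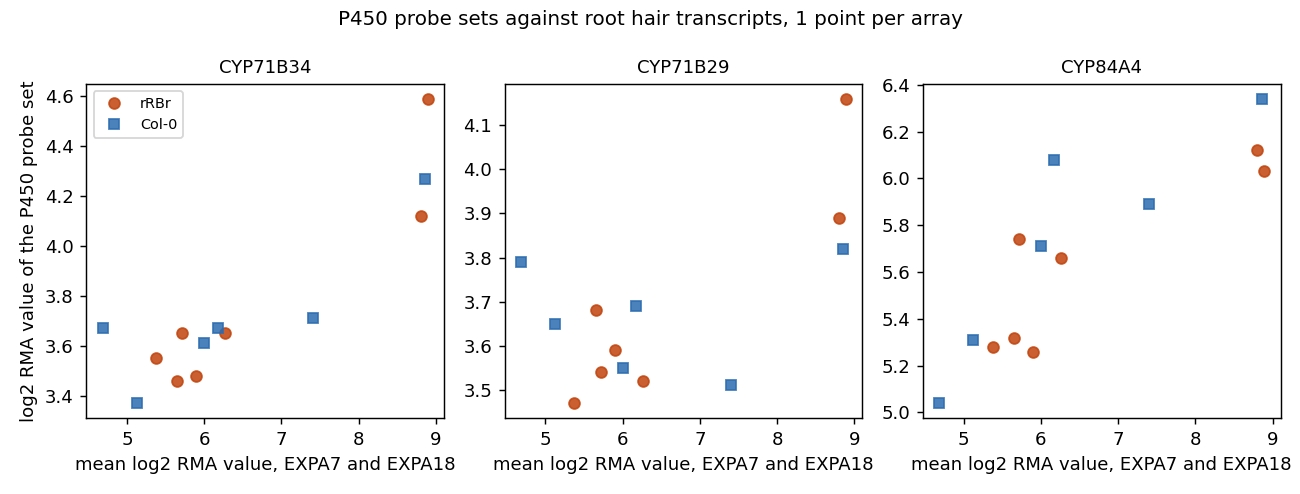
log2 RMA values of CYP71B34, CYP71B29 and CYP84A4 against the mean log2 RMA value of EXPA7 and EXPA18, 1 point per array, rRBr as circles and Col-0 as squares. The 3 arrays with an expansin mean of 8.80 to 8.89 hold the highest CYP71B34 values (4.12 to 4.59) and include both lines.

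The sign of the CYP71B34 difference between lines changed with these arrays. Over all days the difference was 0.07 ± 0.189 (SE, 95% interval -0.34 to 0.48, limma adjusted p = 0.940). Without the 3 arrays it was -0.05, and without rRBr 6 das replicate 1 alone it was -0.07.

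None of the 22 P450 probe sets was called between the lines over all days. A call needed a limma adjusted p under 0.01 together with a change of 1.4-fold or more in either direction. In the comparison over all days 0.418% of all probe sets were called, 78 higher and 17 lower in rRBr. Outside these 22, the study's own list of genes higher in rRBr holds a cytochrome P450 superfamily protein. At an unadjusted limma p under 0.05 there were also 0 of the 22, beside 10.2% of all probe sets. With day as a factor there was 1, CYP78A9, beside 10.3%. With the replicate block and day as a factor it was again CYP78A9 alone, beside 12.6%. The 22 differences ran from -0.46 to 0.09, with 11 above and 11 below 0 and a median of -0.002, beside -0.01 for all probe sets. The 95% interval of the difference lay within a 1.4-fold change for 20 of the 22 genes, all but CYP71B26 and CYP84A4, and within a 2-fold change for 21, all but CYP71B26. For these genes the arrays therefore bound the size of a line difference in measured signal, pooled over days. This bound holds for the low-signal probe sets only as far as their signal follows the transcript. Within days, the interval lay within a 1.4-fold change for 18 of the 22 at 4 das and 18 at 10 das, and for fewer at 6 das. For the change of the line difference with age it did so for 12. None of the 22 separated the 7 rRBr from the 6 Col-0 arrays without overlap, beside 1.28% of all probe sets that did.

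**Figure D4:**
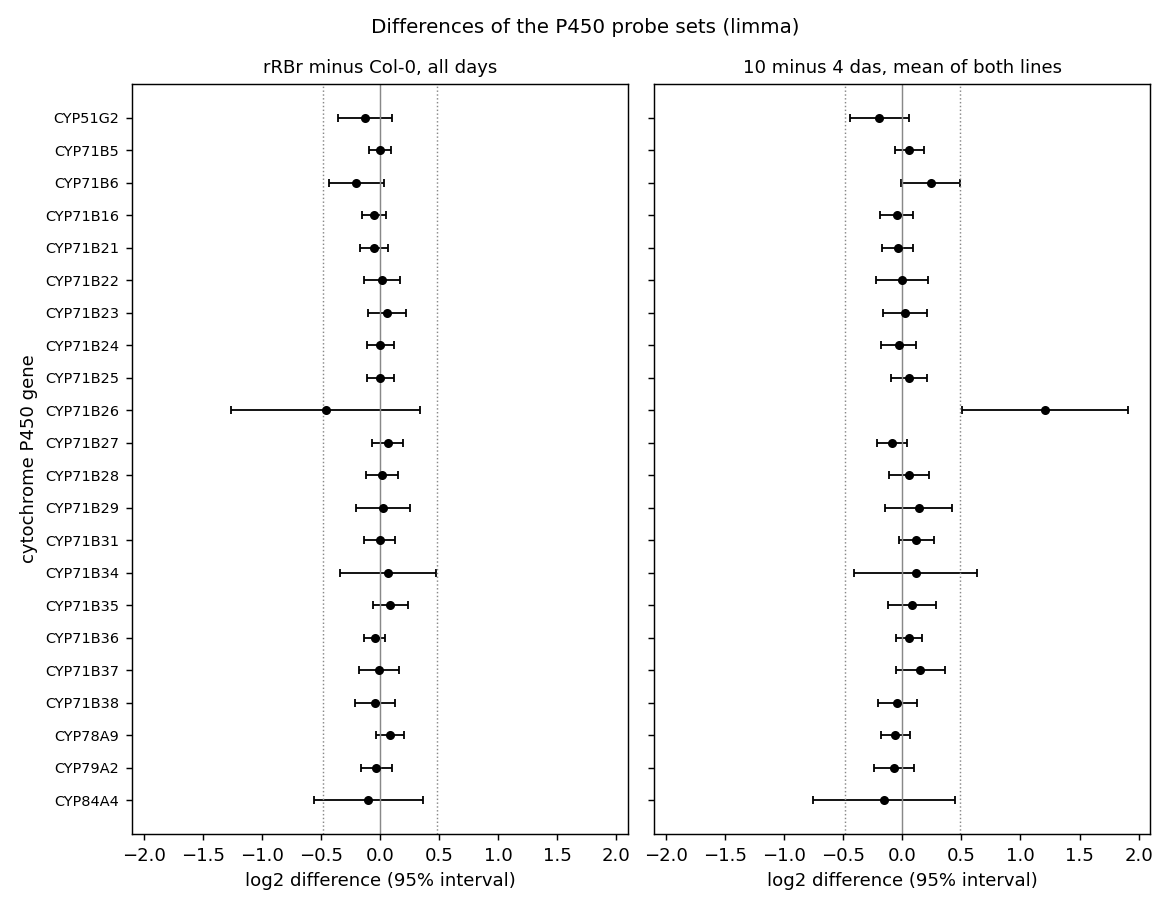
log2 differences with 95% intervals from limma for the 22 P450 probe sets, for rRBr minus Col-0 over all days (left) and for 10 minus 4 das averaged over both lines (right); dotted lines mark a 1.4-fold change. Intervals are narrow for most genes and wide for CYP71B26, whose age difference of 1.21 is the only one past the dotted line.

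Within single days fewer arrays stood behind each value. At 4 das 0 of the 22 were called by limma, beside 0.0044% of all probe sets, and 0 had an unadjusted p under 0.05, beside 3.1%. In the fit without the 3 arrays with high root hair transcripts 2 did, CYP84A4 and CYP71B38, beside 7.15% of all probe sets. The widest gap at that day was CYP84A4, at 5.46 ± 0.283 in rRBr and 5.99 ± 0.134 in Col-0 (SD, n = 2 each), where the rRBr arrays lay below both Col-0 arrays. The share of all probe sets that separate so with 2 arrays per line was not counted. The fitted difference of CYP84A4 with all arrays was -0.525 ± 0.412 (SE, limma unadjusted p = 0.23). At 10 das 0 were called, beside 0.286% of all probe sets, and 0 had an unadjusted p under 0.05, beside 7.8%. CYP84A4 averaged 5.57 ± 0.474 in rRBr and 5.56 ± 0.686 in Col-0 at that day (SD, n = 3 each), and the ranges overlapped.

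At 6 das, with a single Col-0 array whose spread was assumed to be that of the other groups, 0 of the 22 were called by limma, beside 0.0044% of all probe sets. One, CYP71B27, had an unadjusted p under 0.05, beside 4.35% of all probe sets. CYP71B27 averaged 3.86 ± 0.057 in rRBr (SD, n = 2) and read 3.53 in Col-0, a difference of 0.33 ± 0.107 (SE, limma adjusted p = 0.926). It was 0.29 without the 3 arrays, and its unadjusted limma p was then 0.0591. With the replicate block 3 genes had an unadjusted limma p under 0.05 (CYP71B23, CYP71B27 and CYP71B34), beside 17.4% of all probe sets. That Col-0 array held the lowest value of 5 of the 22 genes among the 13 arrays, and CYP71B27 was below the lower quartile throughout.

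A change of the line difference with age, at a limma adjusted p under 0.05, was called for 0 of the 22, beside 0.0044% of all probe sets. At an unadjusted p under 0.05 there was 1, CYP71B38, beside 3.06% of all probe sets. Without the 3 arrays with high root hair transcripts there was again 1, but it was CYP84A4, beside 6.69%. CYP84A4 was also the only 1 without Col-0 10 das replicate 1 alone, beside 4.82%. CYP71B38 read 4.22, 4.37 and 4.31 in rRBr and 4.56, 4.38 and 4.41 in Col-0 at 10 das. At 4 das it read 4.60 and 4.46 in rRBr and 4.37 and 4.24 in Col-0. The rRBr arrays thus lay above the Col-0 arrays at 4 das. At 10 das they lay below them by a narrow margin, with the highest rRBr array at 4.37 and the lowest Col-0 array at 4.38. How many of all probe sets cross in this way was not counted. Over the 13 arrays CYP71B38 read 4.08 to 4.60, below the lower quartile on 1 array and never above the median. The difference at 10 das minus that at 4 das was -0.38 ± 0.148 (SE, 95% interval -0.71 to -0.04), with a limma adjusted p of 1. It was -0.28 without the 3 arrays with high root hair transcripts (limma adjusted p = 0.757), and the unadjusted p was then above 0.05. The unadjusted p was also above 0.05 when replicate 2 of Col-0 or replicate 1 of rRBr at 4 das, or replicate 1 of either line at 10 das, was left out.

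With age, none of the 22 was called at 10 das against 4 das averaged over both lines, beside 0.0308% of all probe sets. CYP71B26 was the only 1 of the 22 with an unadjusted limma p under 0.05, beside 6.47% of all probe sets. With the replicate block there were 3, CYP71B26, CYP51G2 and CYP71B37, beside 11.3% of all probe sets, and without the 3 arrays with high root hair transcripts 3, CYP71B26, CYP71B6 and CYP84A4, beside 14.9%. Array weights gave the most, 5 (CYP71B26, CYP71B27, CYP71B31, CYP71B6 and CYP84A4), beside 12.9%. The 22 differences had a median of 0.04, beside -0.005 for all probe sets. Apart from CYP71B26, CYP71B6 differed by 0.24 ± 0.112 and CYP51G2 by -0.19 ± 0.112 (SE, limma adjusted p = 0.843 and 0.976). CYP84A4 differed by -0.15 ± 0.266 and CYP78A9 by -0.06 ± 0.053 (SE, limma adjusted p = 1.00 for both). Without the 3 arrays with high root hair transcripts, the age difference of CYP84A4 was -0.48 ± 0.107 (SE, limma adjusted p = 0.0834), against -0.15 with all arrays, and still not called. This average joined unlike lines, with -0.81 within Col-0 and -0.16 within rRBr. On the same arrays CYP71B6 differed by 0.33, CYP51G2 by -0.12 and CYP78A9 by -0.08.

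Within rRBr alone 0 of the 22 were called at 10 against 4 das by limma, beside 0% of all probe sets, and 0 had an unadjusted p under 0.05, beside 5.26%. With the replicate block 3 did, CYP71B26, CYP51G2 and CYP79A2, beside 10.4%, and without the 3 arrays 1 did, CYP71B6, beside 8.7%. Within Col-0 alone 0 were called, beside 0.0308% of all probe sets, and 1, CYP71B26, had an unadjusted p under 0.05, beside 4.61%. This count was 0 without Col-0 4 das replicate 2, and 3 without the 3 arrays (CYP71B26, CYP71B6 and CYP84A4, beside 13.9%).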

How the data were processed

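The authors hybridised root tip RNA to Affymetrix ATH1 arrays and deposited log2 values made by RMA (background correction, quantile normalization and probe set summary) with the affy package; versions were not given in the sources used here. The paper counts das from sowing, the sample labels from stratification. All 13 arrays were used as deposited, and no pair of arrays was identical. Control probe sets (64 of 22810) were left out, which left 22746. Genes came from the platform table and RefSeq TAIR10.1: 13513 probe sets had 1 gene (13436 matched RefSeq), 503 had several and 8730 had none named. Probe sets shared by several genes were not used, and RBR itself is not analysed here.

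Differences were fitted with limma 3.58.1 in R 4.3.3 across all 22746 probe sets, after tests on simulated data. The comparison over all days used 2 groups, as in the study. The others used 6 groups of line and day. A call needed a Benjamini-Hochberg adjusted p under 0.01 with a change of 1.4-fold or more, the limits of the study. For the change of the line difference with age, which the study does not test, an adjusted p under 0.05 was chosen here. Biological replicates are numbered in the labels, and germination was repeated 3 times per line; p-values measure the spread between these arrays. Number pairing was checked by correlating deviations from group means between same-numbered arrays of the 2 lines: r was 0.787, 0.603 and 0.631 at 10 das and 0.185 at 4 das. Since each exceeded 0.1 and the study had 3 growth rounds, numbers were taken to pair the arrays, but only in the replicate block. The main SEs, intervals and p-values come from fits without that block. At 10 das, however, r was also 0.561 for rRBr replicate 2 with Col-0 replicate 3, and 0.408 for rRBr replicate 3 with Col-0 replicate 2. Pairs of a replicate 1 array with another number had r from -0.721 to -0.604. Deviations within a group cancel, so these negative values follow in part from the positive r of the replicate 1 arrays. At 4 das, with 2 arrays per line, differently numbered pairs mirror the others by construction (r = -0.185). These values alone therefore do not settle the pairing by number. The replicate 1 arrays at 6 das also differed in the mean of EXPA7 and EXPA18, at 8.89 in rRBr and 6.00 in Col-0.

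Genes named were those with the highest means, the largest differences or SDs, role list members and tandem neighbours. The genes and lists were chosen with earlier results of these data known. Alternatives were a replicate block, day as a factor, array weights, a filter on means of 5, other levels in place of the array median, and fits without single arrays, days or the 3 arrays with high root hair transcripts. The number of arrays limits the precision. No sequences were used here.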

Additional observations from a re-analysis of the deposited data

Results flagged for a closer look

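Among 44 sets of values, each 1 gene in 1 line, 2 held an array that lay far from the others of its line, and chance alone flags about 1 in 20 such sets. CYP71B24 read 3.56 on rRBr 4 das replicate 1, the highest of the 7 rRBr arrays, with the next at 3.46. CYP71B21 read 3.45 on Col-0 6 das replicate 1, the lowest of the 6 Col-0 arrays, with the next at 3.56. Both genes were below the lower quartile on every array.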

How the results depend on the processing

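In each of the 8 limma comparisons the count of called probe sets among the 22 P450 genes was 0 under every alternative that could be fitted. It stayed at 0 when single arrays were left out. The 6 das comparison could not be fitted without the 6 das arrays or without Col-0 6 das replicate 1. With the replicate block, which uses the pairing by number, the count was 0 in each comparison, and CYP71B26 differed by 1.36 at 10 against 4 das (limma adjusted p = 0.114); the block changed no call, but the count at an unadjusted p under 0.05 was 3 with it and 1 without it at 6 das and for 10 against 4 das over both lines, and 3 with it and 0 without it for 10 against 4 das in rRBr. For rRBr against Col-0 over all days, the count at an unadjusted limma p under 0.05 was 0 with the block alone. It was 1, CYP78A9, with day as a factor, both with and without the block. The count above the array median on every array, 1, was 0 with the upper quartile, 6 with the lower quartile and 4 when 1 array was enough. This count ran from 1 to 2 when single arrays were left out (2, with CYP71B26, without Col-0 4 das replicate 2).

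Of 331 refits of the 15 single-gene differences, 324 kept their sign and none was called. The 7 that changed sign were all for rRBr against Col-0 over all days. CYP71B34 was -0.01 with array weights, -0.086 without the 6 das arrays, -0.048 without the 3 arrays with high root hair transcripts, -0.0003 without Col-0 10 das replicate 3 and -0.065 without rRBr 6 das replicate 1. CYP51G2 was 0.002 without the 3 arrays, and CYP84A4 was 0.024 without Col-0 10 das replicate 1. With single arrays left out, the differences over all days ran from -0.77 to -0.22 for CYP71B26, -0.25 to -0.11 for CYP71B6, -0.24 to 0.02 for CYP84A4, -0.16 to -0.07 for CYP51G2, 0.04 to 0.10 for CYP78A9 and -0.07 to 0.18 for CYP71B34. Over all 22 genes, the sign of this difference changed under at least 1 alternative for 15. The number of arrays, 1 to 3 per line and day, limits the precision within days.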
